A study of Mus musculus with 16 samples.

Results

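Of 23479 genes in the count table, 10 that hold back the cell cycle or mark senescence are described here. They are the CDK inhibitor genes Cdkn1a, Cdkn1b, Cdkn2a, Cdkn2b, Cdkn2c and Cdkn2d, the p53 gene Trp53, its regulator Mdm2, its target Ccng1, and the lamin gene Lmnb1. The 10 genes were chosen by name, and each was found once in the table under its symbol. RNA was sequenced from CD4 T cells of C57BL/6 mouse spleens in 3 groups. Day 7 (7 mice) and day 14 (4 mice) are times after the mice received Eµ-Myc lymphoma cells, B cells whose Myc oncogene is driven by an immunoglobulin heavy chain enhancer. Controls were 5 mice without tumours, which the sample titles call day 0. The labels name no altered allele in the host mice of any group, and the tumour was transplanted rather than arising in the host. T cells were enriched by removing other cells with magnetic beads, so what remained was a CD4-enriched fraction and not a sorted pure one.

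Progress from G1 into DNA synthesis is driven by cyclin-dependent kinases (CDKs), and the products of the CDK inhibitor genes bind and block them. The Cip/Kip proteins p21 (Cdkn1a) and p27 (Cdkn1b) act on cyclin-CDK complexes of several kinds, whereas the INK4 proteins encoded by Cdkn2a to Cdkn2d bind CDK4 and CDK6. The p53 protein switches on Cdkn1a, Mdm2 and Ccng1 after DNA damage and other stress, and the MDM2 protein marks p53 for degradation. Resting T cells are known for abundant p27, which is lost as they enter the cycle. In senescent cells p21 or p16, a product of Cdkn2a, accumulates and lamin B1, the product of Lmnb1, is lost. Most control of p53 and p27 acts on the proteins, which RNA counts do not show.

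Promoters of the 3 known p53 targets and, for contrast, of Cdkn1b are printed here. Each line holds the 250 bases before a RefSeq transcript start (build GRCm38.p6), and capitals mark matches to the p53 decamer, the unit that is repeated in a p53 binding site. Windows were looked up for the 9 genes other than Lmnb1, and each had at least 1. The windows are chr17:29090729-29090978 (plus strand) for Cdkn1a, chr10:117710759-117711008 (minus strand) for Mdm2, chr11:40755287-40755536 (minus strand) for Ccng1 and chr6:134920151-134920400 (plus strand) for Cdkn1b.
Cdkn1a: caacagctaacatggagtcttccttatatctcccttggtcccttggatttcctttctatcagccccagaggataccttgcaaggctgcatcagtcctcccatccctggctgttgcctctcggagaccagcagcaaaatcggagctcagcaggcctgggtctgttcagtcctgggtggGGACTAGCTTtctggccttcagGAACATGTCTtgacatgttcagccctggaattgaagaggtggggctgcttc
Mdm2: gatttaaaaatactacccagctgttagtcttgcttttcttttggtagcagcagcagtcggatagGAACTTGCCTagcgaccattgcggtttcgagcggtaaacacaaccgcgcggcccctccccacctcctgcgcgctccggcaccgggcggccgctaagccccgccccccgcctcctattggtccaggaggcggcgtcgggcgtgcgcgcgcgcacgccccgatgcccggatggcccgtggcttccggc
Ccng1: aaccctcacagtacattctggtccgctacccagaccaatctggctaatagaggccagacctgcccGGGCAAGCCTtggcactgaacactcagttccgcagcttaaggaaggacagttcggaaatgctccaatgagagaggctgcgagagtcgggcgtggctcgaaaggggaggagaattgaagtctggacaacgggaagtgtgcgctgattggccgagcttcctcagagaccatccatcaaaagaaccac
Cdkn1b: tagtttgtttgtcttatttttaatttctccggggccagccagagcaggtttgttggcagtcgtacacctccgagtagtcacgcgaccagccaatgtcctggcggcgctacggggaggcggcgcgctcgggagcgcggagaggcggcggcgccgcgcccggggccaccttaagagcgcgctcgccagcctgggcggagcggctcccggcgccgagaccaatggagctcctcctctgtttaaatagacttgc
The decamer reads alike on both strands, so 1 search covered both, and matches were found in 7.12% of 32536 promoter windows of the same length. The Cdkn1a window held 2 matches, starting 73 and 51 bases before the transcript start, and a window of a later Cdkn1a start held 0. The Mdm2 match started 186 bases before its start and the Ccng1 match 185. Matches were also found for Trp53, at 75 bases, and for Cdkn2d, at 102 bases. The windows of Cdkn1b, Cdkn2a, Cdkn2b and Cdkn2c held 0. A match describes letters in a window and no measured binding.

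The libraries held 21610411 to 27340070 gene counts each in controls, 14493764 to 24916411 at day 7 and 14731908 to 17067236 at day 14. Every day 14 library was less deep than every control library. The CD4 T cell marker genes were all present: Cd4 lay between 781 and 1802 TMM-scaled CPM (read counts scaled to library size) over the 16 libraries, while the CD8 genes Cd8a and Cd8b1 reached 3.03 and 16.5 CPM at most. The 8 B cell markers summed to 14.2 to 71.6 CPM in controls, 15.8 to 31.5 at day 7 and 17.3 to 36.8 at day 14. Control libraries 1 and 2 stood apart. Their 10 neutrophil markers summed to 873 and 2545 CPM, against 19.7 to 52.1 in the other controls, and their 14 mitosis genes to 2051 and 4666 CPM, against 337 to 584. Their 8 macrophage and monocyte markers summed to at most 594 CPM. Neutrophil markers also summed to 1737 CPM in day 14 library 4, against 18.8 to 61.1 in the other day 14 libraries and 0.802 to 38.8 at day 7. Of that sum Mpo made up 1226 CPM. S100a8 stood at 2.96 CPM in that library, beside 117 and 549 CPM in control libraries 1 and 2. S100a8, S100a9, Ngp, Camp, Ltf and Lcn2 were each at most 7.56 CPM in any day 14 library. No marker of the CD4, CD8, B cell, neutrophil or macrophage lists was at 0 in all libraries of a group. In bulk RNA, fewer cells of a type and less RNA per cell cannot be told apart. The 8 erythroid markers summed to at most 861 CPM in controls, 163 at day 7 and 259.5 at day 14, and 2 of them, Hba-a1 and Hbb-bs, had 0 reads in every library. The 4 Y-linked genes summed to 352 to 433 CPM in 5 libraries (day 14 library 4, libraries 6 and 7 of day 7, libraries 1 and 2 of the controls) and to at most 3.55 CPM elsewhere. Reads outside gene models made up 47.06% to 56.67% of a library in controls, 54.63% to 67.97% at day 7 and 54.41% to 69.78% at day 14. The highest share was in day 14 library 1. The TMM scaling factors were 0.9233 to 0.9846 in controls, 0.9374 to 1.038 at day 7 and 0.979 to 1.183 at day 14. Depth and scaling thus differed between the groups, and their part in the changes below was not tested. Changes of each of the 10 genes against control are given below with and without control libraries 1 and 2, and those of other genes in part.

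Per kilobase of exon, which allows genes to be compared, Cdkn1b was the most abundant of the 10 genes, with a mean of 50.6 CPM per kb over the 16 libraries. Trp53 (46.8), Lmnb1 (38.9), Ccng1 (37.3), Mdm2 (29.0) and Cdkn2d (20.9 CPM per kb) followed, and these 6 stood between percentiles 87.7 and 95.6 of 17321 tested genes of known length. Cdkn2c had 3.23 CPM per kb and Cdkn1a 0.816. Cdkn2b (0.328 CPM per kb) and Cdkn2a (0.278) were the least abundant, with 155 and 99 reads in all libraries together. Among the CDK inhibitor genes, Cdkn1b and Cdkn2d RNA was thus abundant and that of Cdkn2a and Cdkn2b lowest (percentiles 29.7 and 32.4). Cdkn2c and Cdkn1a lay between, at percentiles 56.3 and 41.5.

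**Figure D1:**
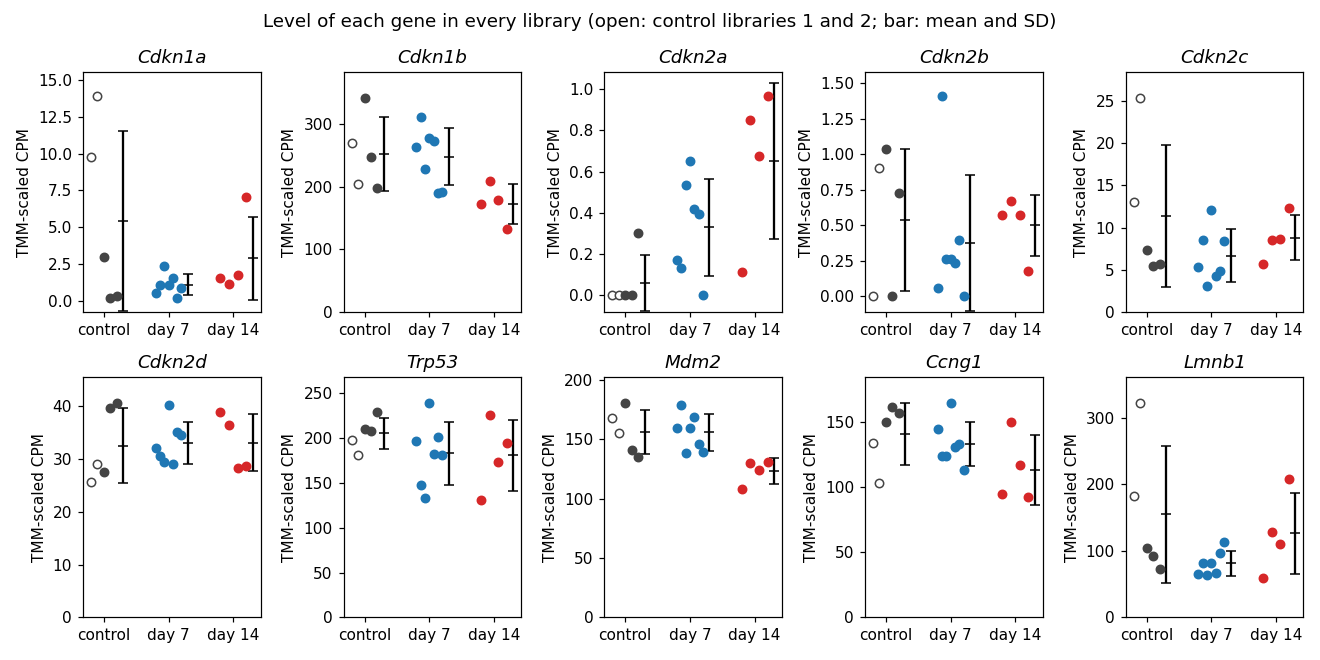
Level of each of the 10 genes (TMM-scaled CPM, linear axis) in every library of the control, day 7 and day 14 groups; points are libraries, open points are control libraries 1 and 2, and the bars show mean and SD. The 4 day 14 points of Mdm2, 108 to 131 CPM, lie below all control and day 7 points on this scale (with library totals they overlap), and control libraries 1 and 2 lie above all others for Lmnb1, Cdkn2c and Cdkn1a, except that day 14 library 4 passes control library 1 for Lmnb1.

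All 10 genes passed the filter on low counts, and none was called in any of the 3 comparisons by edgeR's quasi-likelihood test at a Benjamini-Hochberg adjusted p of 0.05. Over all 18430 genes tested, the same rule called 0.0109% at day 7 against control, 3.13% at day 14 against control and 0.966% at day 14 against day 7. At an unadjusted p under 0.05, 2 members (Cdkn1a and Lmnb1) were lower and 0 higher at day 7, where 12.7% of all genes were lower and 8.43% higher. At that level Cdkn1b and Mdm2 were lower and Cdkn2a higher at day 14 against control (all genes 11.8% and 10.5%), and Cdkn1b and Mdm2 were lower and 0 higher at day 14 against day 7 (8.27% and 6.54%). DESeq2 called 1 member lower at day 7 against control (5.99% of all genes lower), 0 members at day 14 against control and 1 lower at day 14 against day 7 (1.94% lower). limma-voom called 0 members in each. The median log2 change of the 10 genes was -0.12 at day 7 and -0.30 at day 14 against control, beside 0.07 and 0.12 over all genes, and 0.20 beside 0.12 at day 14 against day 7. The comparisons with control share the control libraries, and both comparisons of day 14 share the day 14 libraries.

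**Figure D2:**
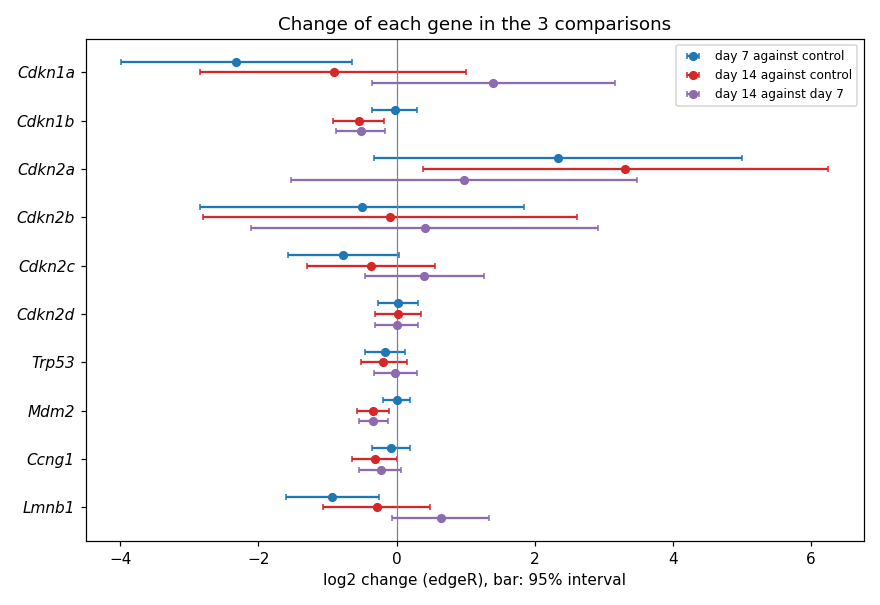
Log2 change of each of the 10 genes (horizontal axis, edgeR) in the 3 comparisons, with 95% intervals that are not adjusted for the number of genes. The intervals of Cdkn1b and Mdm2 lie below 0 in both comparisons of day 14, those of Lmnb1 and Cdkn1a below 0 at day 7, and the intervals of Cdkn2a and Cdkn2b are the widest.

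Cdkn1b (chromosome 6, 134920401 to 134925513, plus strand, GRCm38) encodes p27. Its level was 269, 204, 342, 247 and 198 CPM in control libraries 1 to 5, and 190.4 CPM at the lowest, 264 at the median and 310.3 at the highest of the 7 day 7 libraries. It was 172, 209, 178 and 132 CPM in day 14 libraries 1 to 4. Libraries 1, 3 and 4 of day 14 lay below every control and day 7 library, while library 2 was within the range of the other groups. With library totals only day 14 library 4, at 145 CPM, lay below the others, and libraries 1 to 3 had 202, 205 and 200.3 CPM. Group means were 252 ± 58.3, 248 ± 45.8 and 172 ± 31.8 CPM (SD; 5 control, 7 day 7 and 4 day 14 libraries). The log2 change at day 14 was -0.55 ± 0.18 (SE) against control (edgeR adjusted p = 0.0883) and -0.52 ± 0.17 against day 7 (adjusted p = 0.137), and neither passed the threshold. At day 7 against control it was -0.02 ± 0.15 (edgeR adjusted p = 0.952), with a 95% interval of -0.35 to 0.30, and -0.08 without control libraries 1 and 2 (adjusted p = 0.864). Without day 14 library 2, the change at day 14 against control was -0.66 and passed (edgeR adjusted p = 0.044, with 5.14% of all genes called lower in that fit). With Y-linked transcripts as a covariate it was -0.65 (edgeR adjusted p = 0.0237), and -0.54 against day 7 (adjusted p = 0.0255); that fit called 2.36% and 2.42% of all genes lower. Leaving out control libraries 1 and 2 together gave -0.61 at day 14 (edgeR adjusted p = 0.0666), and library totals gave -0.35 (adjusted p = 0.195).

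Cdkn1a (chromosome 17, 29090976 to 29100727, plus strand, GRCm38) encodes p21, the best known target of p53. An exon annotated on the opposite strand lies within its span, and the strand setting of the counting is not given in the sources used here. Its level was 9.81, 13.9, 2.95, 0.201 and 0.301 CPM in control libraries 1 to 5, from 262, 308, 74, 4 and 7 reads. At day 7 the lowest library had 0.219 CPM, the median 1.09 and the highest 2.33. At day 14 the libraries had 1.55, 1.15, 1.77 and 7.07 CPM. The 3 highest levels were in the 3 libraries with the highest neutrophil markers (873, 2545 and 1737 CPM summed), which are control libraries 1 and 2 with day 14 library 4, and the other 13 libraries ranged from 0.201 to 2.95 CPM. The markers behind these sums differed. S100a8 was 117 and 549 CPM in control libraries 1 and 2 but 2.96 CPM in day 14 library 4, where Mpo was 1226 CPM. Y-linked transcripts summed to 391, 362 and 352 CPM in those 3 libraries. They were also present in libraries 6 and 7 of day 7, which had 0.219 and 0.834 CPM of Cdkn1a. Whether the cells of the neutrophil markers account for the Cdkn1a counts was not tested, nor was the part of the Y-linked difference. The log2 change at day 7 against control was -2.32 ± 0.80 (SE; edgeR adjusted p = 0.106) and at day 14 against control -0.91 ± 0.92 (adjusted p = 0.547). At day 14 against day 7 it was 1.40 ± 0.84 (edgeR adjusted p = 0.468). DESeq2 called the day 7 value (-2.26, adjusted p = 0.033), as did edgeR without control library 5 (-2.62, adjusted p = 0.04, in a fit that called 5.58% of all genes lower). Without control libraries 1 and 2, the change at day 7 was -0.08 (edgeR adjusted p = 0.973) and at day 14 it was 1.31 (adjusted p = 0.337), the opposite sign. With Y-linked transcripts as a covariate, the day 7 change was -1.0 ± 0.94 (edgeR adjusted p = 0.677).

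Of the INK4 genes, Cdkn2d (chromosome 9, 21288410 to 21291407, minus strand, GRCm38) was the most abundant. It was 25.7, 29.1, 27.5, 39.6 and 40.6 CPM in control libraries 1 to 5, with 29.1 at the lowest, 32.0 at the median and 40.2 at the highest at day 7. The day 14 libraries had 38.8, 36.4, 28.3 and 28.6 CPM. The groups overlapped throughout, with means of 32.5 ± 7.06, 33.0 ± 3.97 and 33.0 ± 5.38 CPM (SD, n = 5, 7 and 4). The log2 change was 0.02 ± 0.14 at day 7 and 0.02 ± 0.16 at day 14 against control (edgeR adjusted p = 0.953 and 0.932). The 95% interval at day 14 was -0.31 to 0.36. With control libraries 1 and 2 left out the changes were -0.12 at both times (edgeR adjusted p = 0.751 and 0.623).

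Cdkn2c (chromosome 4, 109660876 to 109667189, minus strand, GRCm38) encodes p18. Its level was 13, 25.4, 7.33, 5.51 and 5.76 CPM in control libraries 1 to 5, and 3.06 at the lowest, 5.39 at the median and 12.1 at the highest at day 7. The day 14 libraries had 5.75, 8.56, 8.62 and 12.3 CPM. Control library 2 was the highest of all, followed by control library 1 and day 14 library 4. On the log2 scale the change was -0.77 ± 0.38 at day 7 (edgeR adjusted p = 0.255) and -0.37 ± 0.44 at day 14 against control (adjusted p = 0.614), and 0.40 ± 0.41 at day 14 against day 7 (adjusted p = 0.686). Once control libraries 1 and 2 were left out, both changes against control were positive, 0.11 at day 7 and 0.50 at day 14 (edgeR adjusted p = 0.915 and 0.382).

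Cdkn2a (chromosome 4, 89274471 to 89294653, minus strand, GRCm38) encodes 2 unrelated proteins from separate first exons, p16 (INK4A) and p19 (ARF), an inhibitor of MDM2. Counts per gene do not separate them. In controls 4 of 5 libraries held 0 reads, which allows up to 0.112 to 0.15 CPM (3 reads), and library 5 held 7 reads (0.301 CPM). The 7 day 7 libraries held 3, 3, 8, 15, 9, 9 and 0 reads, from 0 to 0.654 CPM with a median of 0.394. The 4 day 14 libraries held 2, 14, 13 and 16 reads, or 0.115, 0.85, 0.675 and 0.968 CPM. Libraries 2, 3 and 4 of day 14 stood above every other library, day 14 library 1 lay within the range that 0 reads allow, and control library 5 lay among the day 7 values. The log2 change was 2.34 ± 1.27 at day 7 (edgeR adjusted p = 0.306) and 3.31 ± 1.40 at day 14 against control (adjusted p = 0.175), with a 95% interval at day 14 of 0.38 to 6.25. Without control library 5 all remaining controls were at 0, and the test then passed at both times (edgeR adjusted p = 0.0373 at day 7 and 0.0331 at day 14). That fit called 2.33% and 1.92% of all genes higher. Its fitted changes, 5.79 and 6.77, depend on the prior count and give no bound. The fit without control libraries 1 and 2 gave 1.64 at day 7 and 2.62 at day 14 (edgeR adjusted p = 0.638 and 0.266). The summed B cell markers, which the lymphoma cells share, were 17.3 to 36.8 CPM at day 14, 37.1 to 71.6 CPM in control libraries 1 to 4 and 14.2 CPM in control library 5, and single markers went both ways: Cd22 averaged 9.31 CPM in controls and 14.8 at day 14, Cd79a 9.08 and 2.64. The part of lymphoma or other cells in the Cdkn2a reads was not tested.

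Cdkn2b (chromosome 4, 89306299 to 89311039, minus strand, GRCm38), the neighbour of Cdkn2a, encodes p15. Its level was 0, 0.904, 1.04, 0 and 0.73 CPM in control libraries 1 to 5, and 0 at the lowest, 0.262 at the median and 1.41 at the highest at day 7. The day 14 libraries had 0.575, 0.668, 0.571 and 0.181 CPM. The groups overlapped, and 2 control libraries and 1 day 7 library were at 0, which allows up to 0.112 to 0.15 CPM (3 reads). The 95% interval of the log2 change at day 14 against control ran from -2.80 to 2.61 around -0.10 (edgeR adjusted p = 0.965), and at day 7 from -2.84 to 1.84 around -0.50 (adjusted p = 0.848), so no direction was detectable at this depth. Leaving out control libraries 1 and 2 gave -0.24 at day 14 and -0.64 at day 7 (edgeR adjusted p = 0.908 and 0.839).

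Trp53 (chromosome 11, 69580359 to 69591873, plus strand, GRCm38) encodes p53. Its level was 198, 181, 209.6, 208 and 229 CPM in control libraries 1 to 5, with 133 at the lowest, 182 at the median and 239 at the highest at day 7. The day 14 libraries had 131, 225, 173 and 194 CPM. The groups overlapped, and the spread within day 7 and within day 14 was larger than within controls (SD 35.0 and 39.5 against 17.8 CPM). Its log2 changes were -0.17 ± 0.14 at day 7 (edgeR adjusted p = 0.532), -0.19 ± 0.16 at day 14 against control (adjusted p = 0.48) and -0.02 ± 0.15 at day 14 against day 7 (adjusted p = 0.963). Against the 3 other controls, without libraries 1 and 2, they were -0.24 at day 7 and -0.26 at day 14 (edgeR adjusted p = 0.542 and 0.335).

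Mdm2 (chromosome 10, 117688875 to 117710758, minus strand, GRCm38) is a target of p53 and encodes the ligase that degrades it. Its level was 168, 155, 180.5, 141 and 135 CPM in control libraries 1 to 5, and 138 at the lowest, 159 at the median and 179 at the highest at day 7. The day 14 libraries had 108, 129.8, 124 and 131 CPM. On this scale all 4 day 14 libraries lay below every control and every day 7 library, the nearest being control library 5 at 135 CPM, but with library totals in place of TMM the groups overlapped. On that scale the day 14 libraries had 127, 127, 140.2 and 144 CPM, against 131 and 128 in control libraries 4 and 5 and 140.1 in day 7 library 7. With TMM, Mdm2 was the only one of the 10 genes whose day 14 libraries did not overlap those of another group, and with library totals there was none. Among all genes 2.85% lay wholly lower at day 14 than in controls and 2.78% wholly lower than at day 7, with TMM. Group means were 156 ± 18.8, 156 ± 15.6 and 123 ± 10.7 CPM (SD; 5 control, 7 day 7 and 4 day 14 libraries). The log2 change at day 14 was -0.34 ± 0.11 against control (edgeR adjusted p = 0.0837) and -0.34 ± 0.10 against day 7 (adjusted p = 0.116), and neither passed. DESeq2 called the change against day 7 (-0.30, adjusted p = 0.0453). Without control library 5, edgeR called the change against control (-0.39, adjusted p = 0.0494, beside 3.03% of all genes called lower). With control libraries 1 and 2 left out it was -0.31 (edgeR adjusted p = 0.128), and at day 7 it was 0.03 beside 0.00 with them (adjusted p = 0.923 and 0.986). Scaling by library totals gave -0.14 (edgeR adjusted p = 0.355); this scaling moves the median of all genes at day 14 from 0.12 to 0.32 against control and from 0.12 to 0.29 against day 7, so Mdm2 stood below the median gene under both scalings.

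Ccng1 (chromosome 11, 40748552 to 40755311, minus strand, GRCm38) encodes cyclin G1, a p53 target that recruits a phosphatase to MDM2. Its level was 134, 103, 150, 162 and 157 CPM in control libraries 1 to 5, with 113 at the lowest, 131 at the median and 165 at the highest at day 7. The day 14 libraries had 94.6, 150.4, 117 and 92.6 CPM. Day 14 libraries 1 and 4 were the lowest of the 16, and library 2 lay among the higher controls. Its log2 changes were -0.31 ± 0.15 at day 14 against control (edgeR adjusted p = 0.237), -0.23 ± 0.14 against day 7 (adjusted p = 0.486) and -0.08 ± 0.13 at day 7 against control (adjusted p = 0.789). Leaving out control libraries 1 and 2 moved the changes against control to -0.46 at day 14 and -0.23 at day 7 (edgeR adjusted p = 0.073 and 0.496).

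Lmnb1 (chromosome 18, 56707813 to 56753424, plus strand, GRCm38) encodes lamin B1 of the nuclear lamina. Its level was 182, 322, 104, 91.9 and 72.7 CPM in control libraries 1 to 5. At day 7 the lowest library had 64.2 CPM, the median 81.0 and the highest 113, and at day 14 the libraries had 59.8, 128, 109.7 and 207 CPM. Control library 2, day 14 library 4 and control library 1 were the highest in that order, and control libraries 3 to 5 lay within the day 7 range. The log2 change was -0.93 ± 0.32 at day 7 (edgeR adjusted p = 0.104), -0.29 ± 0.37 at day 14 against control (adjusted p = 0.633) and 0.64 ± 0.34 at day 14 against day 7 (adjusted p = 0.398). Without control library 5 the day 7 value was -1.11 and passed (edgeR adjusted p = 0.0379). Without control libraries 1 and 2 it was -0.14 at day 7 (edgeR adjusted p = 0.837) and 0.49 at day 14 (adjusted p = 0.255), the opposite sign.

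Lmnb1, Cdkn2c and Cdkn1a were highest where the proliferation marker Mki67 was highest. Mki67 was 1379.8 and 3252 CPM in control libraries 1 and 2 and 1461 CPM in day 14 library 4. It was 190.2 to 357 CPM in the other controls, 126 to 495 CPM at day 7 and 266, 915 and 759 CPM in day 14 libraries 1 to 3. Across the 16 libraries, Pearson's r of log2(CPM + 1) was 0.85 between Lmnb1 and Cdkn2c and 0.773 between Lmnb1 and Cdkn1a, and 0.676 and 0.489 over the 14 libraries without control libraries 1 and 2. These correlations describe libraries that also share high sums of neutrophil markers, though not all the same markers, and Y-linked transcripts. The part of either was not tested. Between Cdkn1b and Mdm2, r was 0.822 over 16 libraries and 0.836 over those 14.

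**Figure D3:**
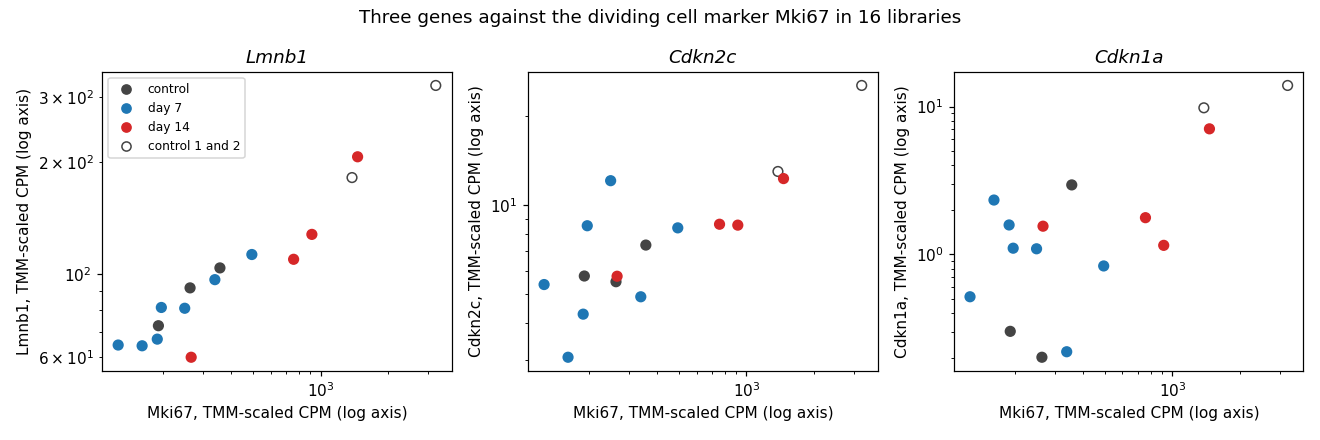
Level of Lmnb1, Cdkn2c and Cdkn1a against Mki67 in the 16 libraries, both axes in TMM-scaled CPM and logarithmic; colours are the groups and open points are control libraries 1 and 2. Control library 1, control library 2 and day 14 library 4, at 1379.8, 3252 and 1461 CPM of Mki67, lie at the right and hold the highest levels of all 3 genes.

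By the likeness of log2(CPM + 1) over the 16 libraries among at least 8155 genes whose mean reached 10 CPM, the genes nearest to Lmnb1 were Pola1, a DNA polymerase subunit (Pearson's r = 0.983), and Prc1, a protein of the dividing cell's midzone (0.982). Cdkn1a was nearest to the kinetochore gene Ndc80 (0.908) and to Chi3l3, a chitinase-like gene of myeloid cells (0.903). Cdkn1b was nearest to Ube2b (0.96) and the antiproliferative gene Tob1 (0.951), and Mdm2 to the chaperone gene Hspa5 (0.935) and Ing3 (0.927). Cdkn2c was nearest to the nucleoside transporter gene Slc29a1 (0.903) and Atp6v1a (0.901), and Cdkn2d to Ddt (0.825) and Zfp251 (0.809). Trp53 was nearest to Capns1 (0.947) and Cops7a (0.925), and Ccng1 to Actb (0.948) and Rpl31 (0.934). For the rare transcripts the nearest genes were less alike, with Pou2f2 (0.857) and Lclat1 (0.785) for Cdkn2a, and Sgsm2 (0.748) and Fbxo6 (0.648) for Cdkn2b. These are the highest values out of all those genes, over libraries that share depth and composition.

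The 8 lists of genes around the members held 115 tested genes, of which edgeR called 0 at day 7 against control, 5 at day 14 against control and 5 at day 14 against day 7. The 5 calls are 4.35% of the lists, beside 3.13% of all genes against control and 0.966% against day 7. At day 7, 7 of the 115 were higher and 44 lower at an unadjusted p under 0.05 (all genes 8.43% and 12.7%), and DESeq2 called 3 higher and 25 lower (all genes 2.71% and 5.99%). All 14 mitosis genes had a lower estimate at day 7, each at an unadjusted p under 0.05, with a median log2 change of -1.73. Of 12 genes of the nuclear lamina and chromatin, 11 had a lower estimate (median -0.52), 6 of them at that level. None of these was called by edgeR: Mki67 stood at -2.12 ± 0.58 (adjusted p = 0.0777) and Hmgb2, a chromatin protein lost in senescent cells, at -1.0 ± 0.27 (adjusted p = 0.0777). These day 7 values rest on control libraries 1 and 2. With both left out, the median of the mitosis genes was -0.10, with 10 of 14 lower and 0 at an unadjusted p under 0.05, and that of the lamina and chromatin genes -0.25, with 10 of 12 lower and 1 at that level. Mki67 was then -0.10 and Hmgb2 -0.32 at day 7 (edgeR adjusted p = 0.928 and 0.51). Mki67 at day 14 against control went from -0.36 (edgeR adjusted p = 0.749) to 1.66 (adjusted p = 0.0468) in that fit, which called 4 mitosis genes higher, beside 456 of all 19144 genes. At day 14 against day 7, 0 of the 14 mitosis genes had a lower estimate (median 1.48). At an unadjusted p under 0.05, 13 were higher (all genes 6.54%), and edgeR called 0. Mki67 was 1.76 ± 0.6 there (edgeR adjusted p = 0.165). Without control libraries 1 and 2, 12 of the 14 were called higher, beside 388 of 19144 genes.

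Among 24 tested p53 target genes, 2 fell at day 14 against control and 0 rose, with a list median of -0.06 (all genes 0.12). Of all genes tested, 1.8% fell and 1.33% rose in that comparison, and 0.553% fell and 0.412% rose against day 7. Sesn1, a stress-induced inhibitor of mTORC1 signalling, went from 115 to 199.6 CPM in controls and 150.3 to 170.2 at day 7 to 90.9 to 120.3 at day 14. Its means were 159.7 ± 30.4, 159.5 ± 7.30 and 109 ± 13.9 CPM (SD, n = 5, 7 and 4). Btg2, an antiproliferative gene, lay between 231 and 357 CPM in controls and between 135 and 194 at day 14, with no overlap. The log2 change was -0.55 ± 0.13 for Sesn1 (edgeR adjusted p = 0.0298) and -0.67 ± 0.16 for Btg2 (adjusted p = 0.0315), and -0.69 and -0.73 without control libraries 1 and 2 (adjusted p = 0.00483 and 0.0255). Against day 7, Sesn1 was the 1 target called (-0.55 ± 0.12, edgeR adjusted p = 0.0348). The 22 other targets, with the apoptosis genes Bax, Bbc3 and Pmaip1 among them, were not called in any comparison. For Sesn1 against control, leaving out any of control libraries 1, 3 and 4, day 7 libraries 1, 3 and 5 or day 14 libraries 1, 3 and 4 ended the call (edgeR adjusted p = 0.0521 to 0.188). For Btg2 the same day 14 and control libraries, and libraries 1 and 5 of day 7, did so (adjusted p = 0.056 to 0.158). For Sesn1 against day 7, leaving out library 3 or 4 of the controls, any day 7 library except 2 and 7, or any day 14 library except 2 did (adjusted p = 0.0593 to 0.186).

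Among 15 regulators and relatives of p53, 2 fell and 0 rose at day 14 against control, and 3 fell and 1 rose against day 7. Without control libraries 1 and 2, 1 was called lower and 1 higher against control, beside 486 and 456 of 19144 genes. Rchy1 encodes PIRH2, another ligase for p53, and was 58.0 to 67.0 CPM in controls and 34.6 to 47.8 at day 14, with no overlap. Its log2 change was -0.62 ± 0.11 against control (edgeR adjusted p = 0.0107) and -0.47 ± 0.11 against day 7 (adjusted p = 0.0419). Sirt1, a deacetylase that acts on p53, was 39.4 to 47.9 CPM in controls, 38.1 to 52.7 at day 7 and 29.5 to 35.7 at day 14, below both on the TMM scale. It fell by 0.45 ± 0.11 on the log2 scale against control (edgeR adjusted p = 0.0391) and by 0.52 ± 0.11 against day 7 (adjusted p = 0.0281). Kat5, which encodes the acetyltransferase TIP60, fell against day 7 from 68.0 ± 6.25 to 51.2 ± 3.88 CPM (SD, n = 7 and 4; edgeR adjusted p = 0.0367). Hipk2, a kinase of p53, rose against day 7 from 108 ± 10.3 to 159 ± 13.6 CPM, by 0.56 ± 0.10 on the log2 scale (edgeR adjusted p = 0.0165).

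Without control libraries 1 and 2 together, Rchy1 was -0.65 against control (edgeR adjusted p = 0.0132), while Sirt1 lost its call (-0.43, adjusted p = 0.0573). Sirt1 against control also lost it with no filter and in the 2-group fit (adjusted p = 0.0515 and 0.133), and with library totals (adjusted p = 0.163), in which its day 14 libraries overlapped the controls. The 2-group fit likewise ended the calls of Sesn1, Btg2 and Rchy1 against control (edgeR adjusted p = 0.179, 0.107 and 0.0825). Of 16298 genes, that fit called 4 higher and 0 lower. Sesn1 lost both of its calls with RLE scaling and with a filter of 1 CPM in 4 libraries. Against day 7, library totals ended the calls of Sesn1, Sirt1, Kat5 and Rchy1 (adjusted p = 0.0958, 0.098, 0.188 and 0.105), and that of Sesn1 against control (0.0916). Leaving out single libraries ended calls as well. Rchy1 against control lost its call without control library 3 or day 14 library 1 or 3 (edgeR adjusted p = 0.0577 to 0.0718). Against day 7 it did so without control libraries 1, 3 or 4, any day 7 library other than library 3, or day 14 libraries 1, 3 or 4 (adjusted p = 0.052 to 0.17). Sirt1 lost its call against control without control libraries 1, 3 or 4, day 7 libraries 1, 4 or 5, or day 14 libraries 1, 3 or 4 (adjusted p = 0.0515 to 0.158). Against day 7 the same day 7 and day 14 libraries did so (adjusted p = 0.0541 to 0.1). Kat5 did without day 7 libraries 1, 2, 4 or 5 or any day 14 library (adjusted p = 0.0545 to 0.137), and Hipk2 without day 14 library 3 or 4 (adjusted p = 0.0729 to 0.0853).

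**Figure D4:**
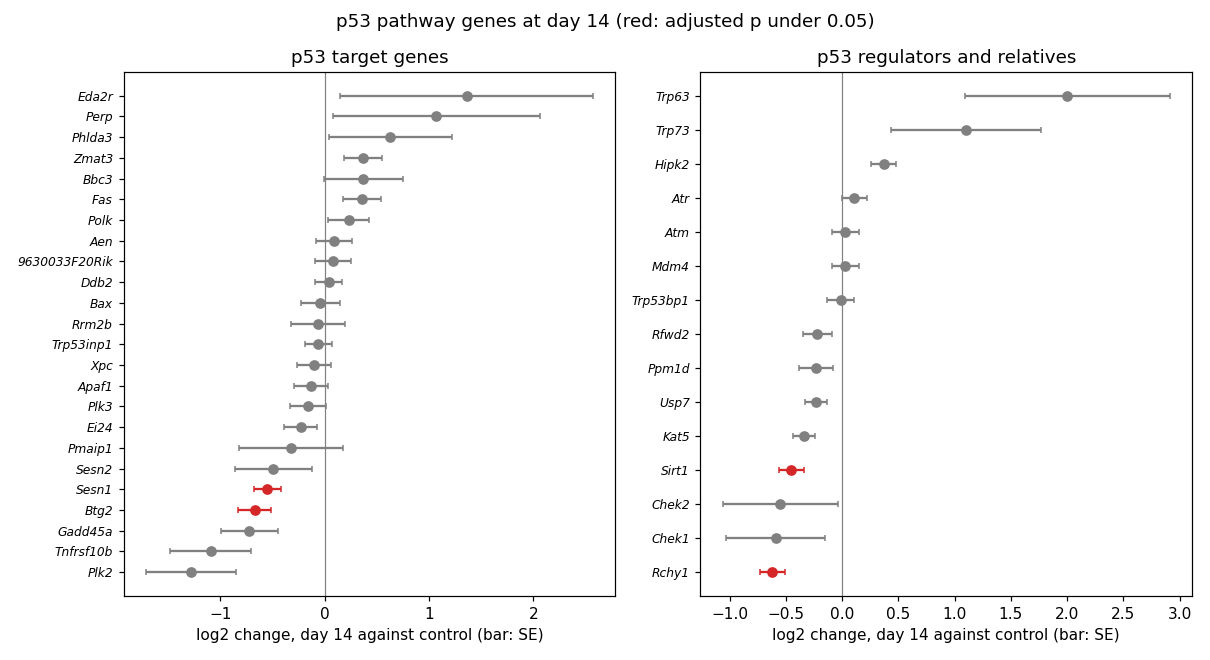
Log2 change at day 14 against control (horizontal axis, bar: SE) of the tested p53 target genes (left) and p53 regulators and relatives (right), one gene per line. The 4 red points are the called genes Btg2, Sesn1, Rchy1 and Sirt1, all to the left of 0, and grey points did not pass the edgeR threshold.

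Of 9 Polycomb genes and their opponents at the Cdkn2a locus, 1 rose at day 14 against control and 0 fell. Cbx7, a Polycomb subunit that represses Cdkn2a, was 135 to 212 CPM in controls, 185 to 259 at day 7 and 245 to 310.4 at day 14. It rose by 0.71 ± 0.12 on the log2 scale (edgeR adjusted p = 0.00817). That call was lost without day 14 library 1 and in the 2-group fit (adjusted p = 0.0548 and 0.0815). Without control libraries 1 and 2 the rise was 0.62 (edgeR adjusted p = 0.0152). The demethylase gene Kdm6b stood at 739 ± 128 CPM in controls, 828 ± 146 at day 7 and 547 ± 77.3 at day 14 (SD, n = 5, 7 and 4; -0.60 ± 0.15 against day 7, edgeR adjusted p = 0.0637). Against day 7 it was called lower in the 2-group fit (-0.59, edgeR adjusted p = 0.0288), beside 396 of 17014 genes. Without control libraries 1 and 2 it was called too (-0.60, edgeR adjusted p = 0.0271), beside 450 of 19144 genes. None of 16 G1 cyclin, CDK and RB-E2F genes was called in any comparison as reported, and Ccnd2, the most abundant, was 449 ± 158, 431 ± 51.8 and 433 ± 65.5 CPM. None of 9 genes of p27 turnover and other CDK inhibitors was called either, with Rnf123 at 175 ± 20.5 CPM in controls and 219 ± 17.7 at day 7 (0.32 ± 0.09, edgeR adjusted p = 0.0777). Without control libraries 1 and 2, Ccnd2 was -0.36 both at day 7 and at day 14 against control (edgeR adjusted p = 0.313 and 0.127), beside -0.06 and -0.05 with them. Rnf123 was 0.32 at day 7 in that fit (adjusted p = 0.313). That fit called 1 gene higher in each of these lists at day 14 against day 7, beside 388 of 19144 genes. Of 16 tested senescence secretory genes 0 were called, and Glb1, which encodes the lysosomal beta-galactosidase used as a senescence stain, was 27.9 ± 2.40, 27.3 ± 2.32 and 24.7 ± 3.52 CPM.

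Across settings, the day 14 estimates of Cdkn1b, Mdm2 and Ccng1 against control stayed below 0 when any library was left out: -0.66 to -0.35, -0.39 to -0.22 and -0.48 to -0.22. So did those of Trp53 (-0.31 to -0.05) and Cdkn1a (-1.87 to -0.21), and Cdkn2a stayed above 0 (2.99 to 6.77). Library totals put Trp53 at 0.0, and limma-voom put Cdkn1a at 0.02. The estimates for Cdkn1a, Cdkn2c, Cdkn2d and Lmnb1 did not keep their sign without control libraries 1 and 2.

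**Figure D5:**
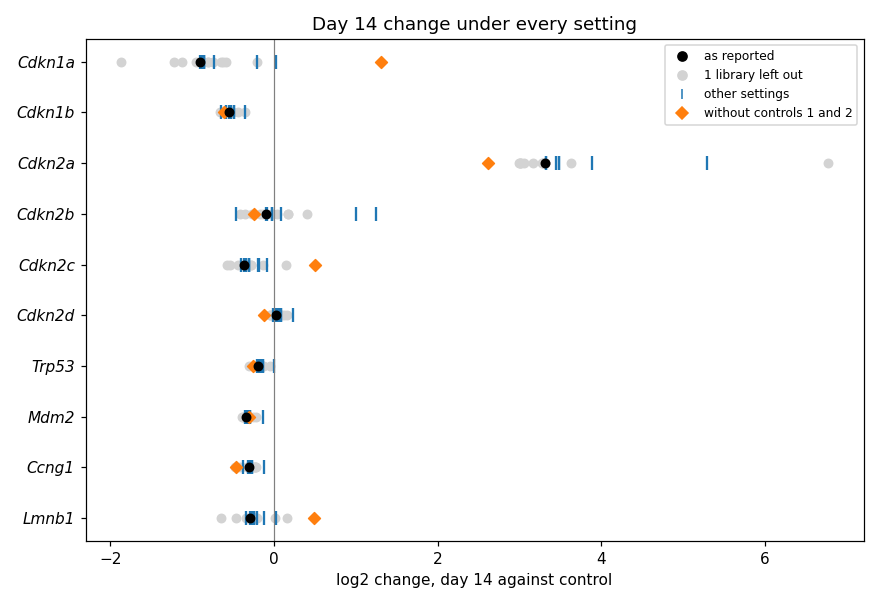
Log2 change at day 14 against control (horizontal axis) of the 10 genes under each setting: black points as reported, grey points with 1 library left out, blue ticks other scalings, filters and tests, orange diamonds without control libraries 1 and 2. Cdkn1b, Mdm2 and Ccng1 lie left of 0 throughout, and the orange diamonds of Cdkn1a, Cdkn2c and Lmnb1 lie to the right of 0.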

How the data were processed

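Libraries were made with a NuGEN kit from RNA of CD4 T cells enriched by negative selection (labels' protocols). Per the submitters' processing notes, the tools were HTSeq 0.6.1, cutadapt 1.8.1 and bcl2fastq 2.20.0.422, and the build mm10; which aligner, annotation and strand setting were used is not given in the sources used here. The deposited table held raw read counts per gene. Its 5 lines that name no gene stayed out. Groups came from the labels, and each library was taken as 1 mouse because the design text counts mice.

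The model was edgeR 4.0.16's quasi-likelihood fit under R 4.3.3, with TMM scaling and filterByExpr, over 16 libraries, Benjamini-Hochberg adjustment over 18430 genes (5049 removed) and a threshold of 0.05. The SE is the absolute log2 change over the square root of F. Alternatives were RLE and total scaling, other filters, DESeq2 1.42.0, limma-voom (limma 3.58.1), 2-group fits, left-out libraries, the replicate number as a block and Y-linked transcripts as a covariate. On simulated counts for day 14 against control (17162 genes), the test called 50% of genes changed 2-fold and 78% of those changed 4-fold. It called 40% and 76% for day 14 against day 7, and 60% and 81% for day 7 against control. The changed genes had a mean of at least 1 CPM, which Cdkn2a and Cdkn2b did not reach. No library was simulated to stand apart as control libraries 1 and 2 do. The members, lists and tests were chosen with earlier results of these data known. The text names the 10 members, up to 4 called genes of smallest p per list and comparison (else the most abundant), the 2 genes most like each member, and marker genes. Bax, Bbc3 and Pmaip1 were named as list members only. Exon lengths and positions are from GENCODE's annotation of GRCm38, which mm10 names, matched by symbol for 93.3% of genes, and promoters are from RefSeq. Of the p53 target list, 24 of 25 symbols were found. Figures were drawn with Matplotlib 3.10.9, and tables made with pandas 2.3.3 and NumPy 2.4.6 under Python 3.11.15.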

Additional observations from a re-analysis of the deposited data

Results flagged for a closer look

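In 3 of 30 sets of libraries tested (10 genes in 3 groups), 1 library lay apart from the rest of its group by Dixon's criterion, which chance meets in about 1 of 20 sets. Cdkn1a was 7.07 CPM in day 14 library 4, where the others had 1.15 to 1.77 CPM (gap over range 0.897, critical value 0.829). That library also had 1461 CPM of Mki67 and neutrophil markers that summed to 1737 CPM (Mpo 1226 CPM, S100a8 2.96 CPM), whose part was not tested. Cdkn2a was 0.301 CPM (7 reads) in control library 5, with 0 reads in the other 4 controls (gap over range 1.0, critical value 0.71). With the other 4 at 0, the ratio is 1.0 for any count in library 5. The criterion was thus bound to be met, and the rate of 1 of 20 does not apply to that set. Cdkn2b was 1.41 CPM (32 reads) in day 7 library 2, where the other day 7 libraries had at most 0.394 CPM (gap over range 0.72, critical value 0.568).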

How the results depend on the processing

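Depth limits Cdkn2a and Cdkn2b most: their 99 and 155 reads give 95% intervals several log2 units wide, and the filters of the 2-group fits and of 1 CPM in 4 libraries removed one or both in some comparisons, which then gave no value. DESeq2 gave no adjusted p for Cdkn2a in 2 comparisons, nor for Cdkn2b at day 7 against control. Its counts of members called leave those out. Where a value below changed, the cause was not tested.

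Of the 10 genes, DESeq2 and the Y-linked covariate called 1 lower each at day 14 against day 7. DESeq2 called 1 lower at day 7 against control, and the Y-linked covariate 1 lower at day 14 against control. With 1 library left out, 0 to 1 members were called higher and 0 to 2 lower at day 7, and 0 to 1 in each direction at day 14 against control. Over all genes, those fits called 0 to 429 higher and 0 to 1026 lower at day 7. At day 14 against control they called 42 to 487 higher and 18 to 999 lower. The fits named in this paragraph tested 14683 to 19442 genes each. For the pathway lists at day 7 (0 calls as reported), DESeq2 called 3 higher and 25 lower and the Y-linked covariate 2 lower, with 0 to 2 higher and 0 to 25 lower over left-out libraries. Of all genes, DESeq2 called 499 higher and 1104 lower, and the covariate 246 lower. At day 14 against control (1 higher, 4 lower) the number higher was 2 with RLE scaling and the 1 CPM filter, 3 with library totals and DESeq2, 0 in the 2-group fit and 6 without control libraries 1 and 2. The number lower was 2 with library totals, 10 with DESeq2 and 0 in the 2-group fit. Of all genes, 246 were higher and 331 lower as reported. The settings just named called 289, 242, 699, 852, 4 and 456 of all genes higher, in that order. Library totals called 100 of all genes lower, DESeq2 699 and the 2-group fit 0. Over left-out libraries the list calls ranged from 0 to 2 higher and 0 to 11 lower. At day 14 against day 7 (1 higher, 4 lower), 2 were higher with library totals, 6 with DESeq2 and 13 in the 2-group fit. There were 15 higher without control libraries 1 and 2 and 16 with the Y-linked covariate, and 0 were lower with library totals. Of all genes, 76 were higher and 102 lower as reported. Library totals called 150 of all genes higher and 41 lower. DESeq2 called 349 of all genes higher and the 2-group fit 316. The fit without control libraries 1 and 2 called 388 higher. The Y-linked covariate called more of all genes higher than any of these settings. Left-out libraries gave 0 to 6 list genes higher and 0 to 5 lower, beside 17 to 213 and 8 to 318 of all genes.

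The groups hold different mice, so equal replicate numbers pair nothing, and same-numbered libraries deviated together with a correlation of -0.343 to 0.295 (median -0.083, 13 pairs). With the replicate number as a block, no member was called, and the list calls were 1 higher (Cbx7, edgeR adjusted p = 0.0366) and 0 lower at day 14 against control, and 0 in either direction against day 7. Of all genes, that fit called 25 higher and 21 lower against control, and 9 and 19 against day 7. The block also turned the sign of Cdkn1b (0.12), Cdkn2b (0.13) and Mdm2 (0.04) at day 7, of Cdkn2b (1.00) and Ccnd2 (0.05) at day 14 against control, and of Trp53 (0.04) at day 14 against day 7.

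Other changes of sign concerned estimates that had not passed. At day 7, library totals gave Cdkn1b 0.01, Mdm2 0.03 and Glb1 0.01. limma-voom gave Cdkn2b 0.07 and Ccnd2 0.01. Mdm2 was 0.01 with RLE and DESeq2, 0.00 with no filter, 0.02 with the 1 CPM filter and the 2-group fit, and 0.03 without control libraries 1 and 2, which gave Cdkn2c 0.11 and Cdkn2d -0.12. At day 14 against control, limma-voom gave Cdkn1a 0.02, Cdkn2b 1.25, Ccnd2 0.02 and Mki67 0.25, and library totals Cdkn2b 0.09, Trp53 0.00, Ccnd2 0.15 and Glb1 0.04. Without control libraries 1 and 2, Cdkn1a was 1.31, Cdkn2c 0.50, Cdkn2d -0.12, Lmnb1 0.49, Hmgb2 0.08 and Mki67 1.66. The Y-linked covariate gave Cdkn2d -0.01, Lmnb1 0.02 and Mki67 0.64. At day 14 against day 7, Cdkn2d was 0.00 with no filter and without control libraries 1 and 2, and -0.01 with limma-voom and the Y-linked covariate, which gave Ccnd2 -0.01. Trp53 was 0.01 with RLE and DESeq2 and 0.13 with library totals, which gave Rnf123 0.10 and Glb1 0.03. The day 14 level of Mdm2 was 135 CPM with library totals. Over left-out libraries, sign changes at day 7 were within -0.10 to 0.16 for Cdkn1b, -0.05 to 0.15 for Cdkn2d, -0.05 to 0.11 for Mdm2, -0.17 to 0.01 for Ccng1, -0.21 to 0.02 for Btg2, -0.20 to 0.14 for Ccnd2 and -0.06 to 0.03 for Glb1. At day 14 against control they were within -0.42 to 0.40 for Cdkn2b, -0.58 to 0.15 for Cdkn2c, -0.05 to 0.16 for Cdkn2d, -0.65 to 0.16 for Lmnb1, -0.19 to 0.14 for Ccnd2 and -0.76 to 0.64 for Mki67. Against day 7 they were within -0.11 to 0.07 for Cdkn2d, -0.15 to 0.08 for Trp53 and -0.09 to 0.06 for Ccnd2.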
